A study of Mus musculus with 82 samples.

Results

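Intergenic H3K4me3 peaks are the places where hematopoietic stem cells (HSCs) carried trimethylation of lysine 4 of histone H3 (H3K4me3) and that the deposited peak table labels as intergenic. No source used here names the gene set behind the label, and some members held starts of annotated genes. The members were the distinct peaks with this label, 8912 of 33199 H3K4me3 peaks (26.8%). The other classes of the same table held 14684 peaks near a transcription start site (TSS-proximal), 9361 in gene bodies and 242 at transcription end sites. The class labels came from the table and used no measured value.

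The study compared HSCs of young and old mice to describe how chromatin and transcription change in aging. HSCs were bone marrow LSK cells (negative for lineage markers, positive for Sca-1 and c-Kit) that were also CD34- Flk2- CD150+, from C57BL/6J male mice. Young mice were 3 to 4 months old and came from The Jackson Laboratory, and old mice were 24 to 26 months old and came from the NIA Aged Rodent Colony, so age and supplier cannot be told apart. H3K4me3 and H3K27me3 were read in 2 libraries of young HSCs (YHSCs), H3K27ac in 2 libraries of YHSCs and 2 of old HSCs (OHSCs), ATAC-seq in 4 libraries of each age, and mRNA in 4 libraries of YHSCs from pooled mice and 8 of OHSCs from individual mice. The mice were wild type. Each ChIP used 10000 HSCs, mixed with bacteria as carrier, and each ATAC-seq reaction 6000. H3K4me3 in OHSCs was not analysed here, so age was compared only through ATAC-seq, H3K27ac and mRNA.

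H3K4me3 is laid down by SET1 and MLL family methyltransferases and is known as the mark of active and poised promoters, where it is strongest over CpG islands. Weaker H3K4me3 occurs at active enhancers, beside H3K27ac, the acetylation that marks active promoters and enhancers. H3K27me3 is the mark of Polycomb repression, and promoters that carry it together with H3K4me3 are called bivalent. An intergenic H3K4me3 peak can thus lie on an enhancer, on a promoter that an annotation lacks, or on a gene class that the annotation leaves out, such as tRNA genes, which RNA polymerase III transcribes.

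These sequences show windows at strong members and at the regions whose accessibility changed most with age. All are 200 bases of the GRCm38 (mm10) plus strand, 5′ to 3′. In the opening pair, capitals mark CpG dinucleotides, and the window is the one with the most CpGs in its peak. The CpG-rich window (chr6:128760287-128760486) holds 18 CpGs and comes from the strongest CpG-island-like member with neither an annotated GENCODE start nor a tRNA gene inside. The window with fewer CpGs (chr15:101317517-101317716) holds 9. It comes from the member with the most H3K4me3 among those whose observed to expected CpG ratio over the whole peak was below the median of the members, and as the window of that peak with the most CpGs it is not itself poor in them.
CpG-rich: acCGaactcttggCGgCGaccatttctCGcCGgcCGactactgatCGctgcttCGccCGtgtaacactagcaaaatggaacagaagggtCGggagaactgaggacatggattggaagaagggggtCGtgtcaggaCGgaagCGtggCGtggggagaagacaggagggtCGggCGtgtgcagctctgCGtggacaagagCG
Fewer CpGs: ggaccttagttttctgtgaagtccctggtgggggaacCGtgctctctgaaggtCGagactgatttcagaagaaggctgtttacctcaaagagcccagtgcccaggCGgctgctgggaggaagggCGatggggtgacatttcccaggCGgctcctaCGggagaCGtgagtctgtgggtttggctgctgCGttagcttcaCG
The window from the member with the highest H3K4me3 (chr17:23547296-23547495) is shown with the tRNA-Lys gene n-TKctt14 in capitals (plus strand, 73 bases, chr17:23547360-23547432). The peak ends inside this gene, so the window runs past its end.
tRNA: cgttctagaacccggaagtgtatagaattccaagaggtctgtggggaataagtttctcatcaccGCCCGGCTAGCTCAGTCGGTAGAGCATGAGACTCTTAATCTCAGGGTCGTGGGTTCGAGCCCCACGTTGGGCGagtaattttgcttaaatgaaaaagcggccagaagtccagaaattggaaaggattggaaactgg
The last pair comes from the middle of the ATAC-seq region on a member with the largest gain with age (chr16:53238715-53238914) and of that with the largest loss (chr7:126807768-126807967). Capitals mark matches to the motifs listed below. There was 1, to the RUNX motif at position 97 of the gained window, counted from the first base printed, and none in the lost window. The gained window lies on a member with very low H3K4me3 in YHSCs, and the lost window lies almost wholly outside its member, since only part of the region overlaps it.
gained: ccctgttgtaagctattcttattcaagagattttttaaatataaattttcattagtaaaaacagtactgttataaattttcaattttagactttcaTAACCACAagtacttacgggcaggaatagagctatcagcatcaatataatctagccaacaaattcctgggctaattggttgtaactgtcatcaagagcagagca
lost: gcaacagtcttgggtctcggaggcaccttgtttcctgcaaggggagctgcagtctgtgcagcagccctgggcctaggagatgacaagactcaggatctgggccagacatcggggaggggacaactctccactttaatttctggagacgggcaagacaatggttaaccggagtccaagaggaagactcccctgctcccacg

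Intergenic H3K4me3 was low and spanned a wide range, and it was alike in both libraries. The median deposited signal, from libraries the authors normalized to the same number of reads, was 2.70 in YHSC library 1 and 2.65 in library 2, a mean of 2.67 ± 0.04 (SD, n = 2). TSS-proximal peaks had medians of 17.1 and 17.7, and gene body peaks 2.25 and 2.21. In library 1 the signal of the members ran from 0.114 to 36.6, with 1.34 at the 10th and 9.58 at the 90th percentile. In the plot of H3K4me3 by class, the intergenic boxes sat close to those of gene body peaks and below those of TSS-proximal peaks in both libraries. The signals of both libraries followed each other over the members (Pearson r = 0.99, Spearman rho = 0.94, n = 8912 peaks of the same libraries), and 8.20% of members differed by more than 1.5-fold between them, against 0.947% of TSS-proximal peaks. A minority reached promoter levels: 802 members (9.0%) exceeded the lower quartile of the TSS-proximal peaks (10.2) and 225 (2.52%) exceeded their median (17.4). The peaks were narrow, with a median width of 859 bp against 1498 bp for TSS-proximal peaks. The sources used here do not give how reads were turned into 1 value per peak, so levels of classes that differ in width are compared only on that deposited scale.

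**Figure D1:**
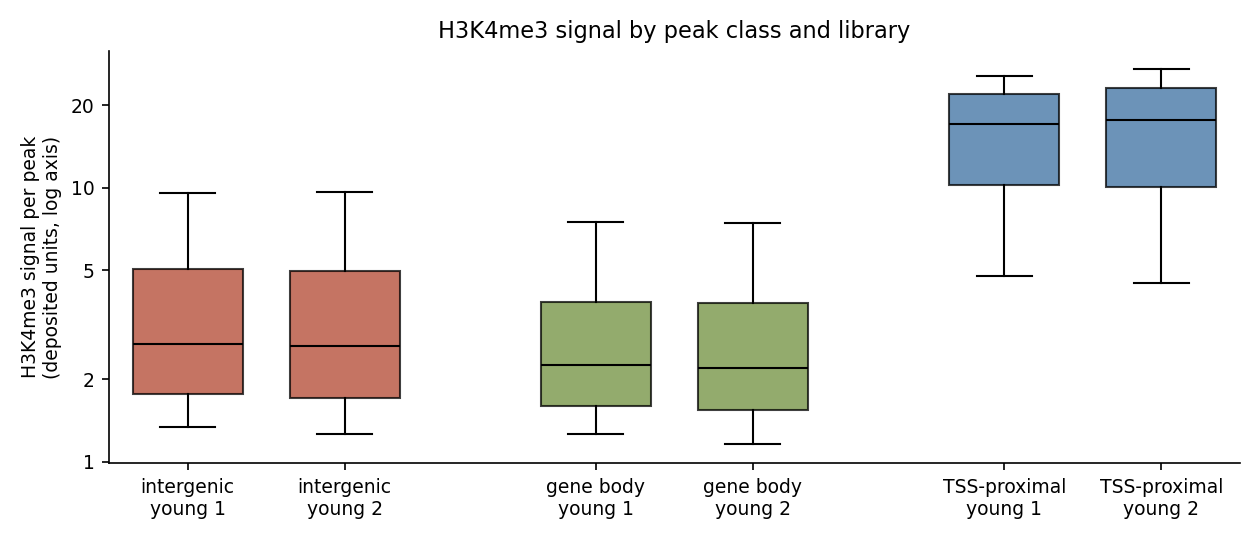
H3K4me3 signal per peak (deposited units, log axis) for intergenic, gene body and TSS-proximal peaks in YHSC libraries 1 and 2; boxes show the quartiles, lines the medians and whiskers the 10th and 90th percentiles. Intergenic medians were 2.70 and 2.65, and TSS-proximal medians 17.1 and 17.7.

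The members with the most H3K4me3 included tRNA genes, sites beside annotated promoters and sites farther from annotated starts. The member with the highest mean, chr17:23546540-23547394, had a signal of 36.6 in library 1 and 39.4 in library 2 and overlapped 2 tRNA genes (tRNA-Lys, in part, and tRNA-Pro; a member counts here as holding a tRNA gene when they share a base), 17271 bp from the protein-coding Zfp213, measured, as all distances here, from the middle of the peak to the nearest GENCODE start. The next, chr7:16046438-16047934 (34.3 and 36), held an annotated start of Bicra, which encodes a subunit of a SWI/SNF chromatin remodelling complex. The related Bicral had a start inside another (chr17:46855757-46858818, 31.4 and 33.1). Both peaks had the intergenic label although a GENCODE start lay inside. Peak chr6:128760123-128761222 (32.8 and 34.7), source of the CpG-rich sequence above, lay 16029 bp from the processed pseudogene Gm43907 and 27813 bp from Klrb1c, a natural killer cell receptor gene. The other 4 of the 8 strongest were chr2:34802268-34803296 near Rabepk (31.3 and 33.6), chr5:142819516-142822343 near Tnrc18 (30.2 and 32.6), chr5:123138366-123139160 at the start of 4932422M17Rik, 3430 bp from the H3K4 methyltransferase gene Setd1b (28.9 and 33.7), and chr1:165641624-165643188, which held 2 tRNA-Pro genes (28.9 and 32.7). All 8 also overlapped an H3K27ac peak and none an H3K27me3 peak. Among the 7 of these with a tested ATAC-seq region, the log2 fold change between ages of the most accessible one lay between -0.29 and -0.02, and only the region on the chr1 peak passed an adjusted p of 0.01 (-0.29 ± 0.07 SE, adjusted p = 0.000943, edgeR), below the 1.5-fold threshold.

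The 5 widest members spanned 3269 to 3888 bp. The widest, chr3:148987080-148990967 (26.6 and 27.2), held a start of the antisense RNA gene Gm43573. It also held a start of Adgrl2, which encodes an adhesion G protein-coupled receptor. Others lay at Gm43177 (chr5:52112782-52116371), at Gm42517 and the lincRNA Gm10419 (chr5:108366217-108369750), at a start of the transcription factor gene Klf12 (chr14:100283448-100286970) and over a run of 4 tRNA genes for leucine, arginine and valine (chr19:12010166-12013434).

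CpG content rose with H3K4me3 across the members. The median GC content was 49.3% and the median ratio of observed to expected CpGs 0.33, against 57.0% and 0.66 in TSS-proximal peaks. Peaks with a GC content of at least 50% and a ratio of at least 0.6 over the whole peak, called CpG-island-like here, made up 8.14% of members (95% exact binomial interval 7.58 to 8.72), 6.97% of gene body peaks and 59.9% of TSS-proximal peaks. From the lowest to the highest quartile of H3K4me3 the share among members was 1.03%, 2.33%, 4.71% and 24.5%. Spearman's rho between the mean signal and the CpG ratio was 0.53 over 8909 members on assembled chromosomes, which share their libraries. The CpG-island-like members had a median signal of 9.23 in library 1 and 9.0 in library 2, against 2.53 and 2.48 for the rest.

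**Figure D2:**
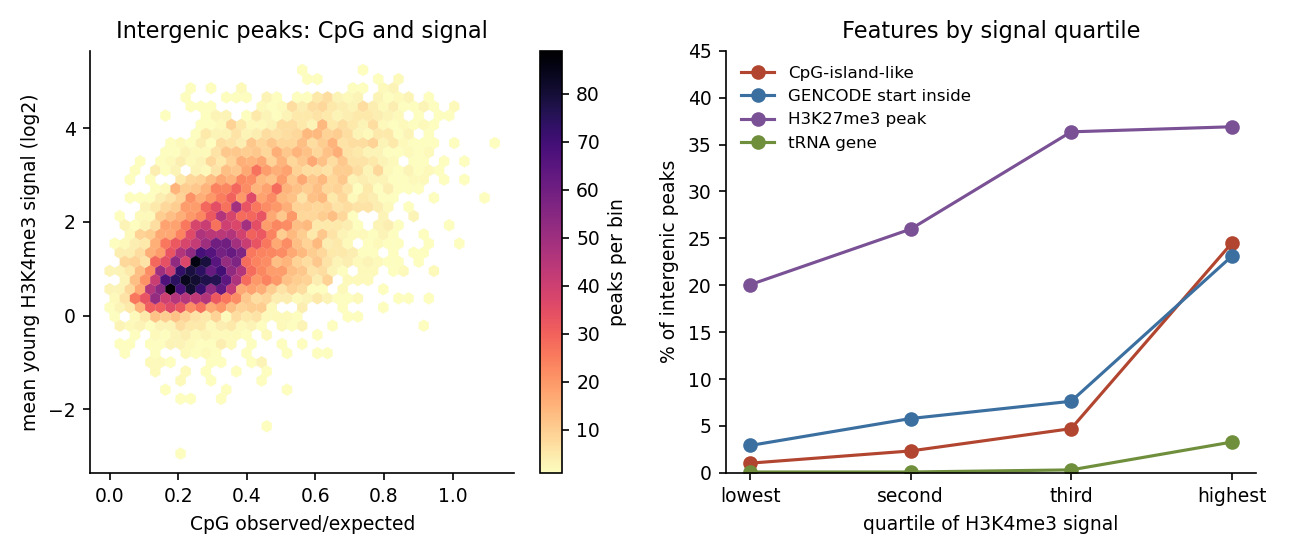
Left, CpG observed/expected against the mean young H3K4me3 signal (log2) of the intergenic peaks, with darker bins holding more peaks; right, the share of intergenic peaks in each quartile of that signal that were CpG-island-like, held a GENCODE start, overlapped an H3K27me3 peak or held a tRNA gene. In the highest quartile 24.5% were CpG-island-like and 3.28% held a tRNA gene.

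Few of the members held an annotated start. A GENCODE M21 transcript start lay inside 878 members (9.85%), a curated RefSeq start inside 145 (1.63%) and a predicted RefSeq start inside 715 (8.02%), and 2272 (25.5%) shared a base with a GENCODE gene. The median distance to the nearest GENCODE start was 11255 bp, and 872 members (9.78%) lay beyond 50 kb. Members within 1 kb of a start had median signals of 5.38 and 5.39 in both libraries, those at 5 to 50 kb 2.49 and 2.44, and those beyond 50 kb 2.34 and 2.29. Members also lay in groups: 2497 (28.0%) had another member within 10 kb. The largest group held 9 peaks over 44667 bp between Ddit4, which encodes an inhibitor of mTORC1 signalling, and Dnajb12 on chromosome 10.

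tRNA genes lay under some of the strongest members. Of 403 tRNA genes in RefSeq, 120 (29.8%) lay under an intergenic H3K4me3 peak, 35 under a TSS-proximal peak and 10 under a gene body peak. The 120 genes lay in 84 members, which is 0.943% of members against 0.191% of TSS-proximal peaks. These members had a median signal of 16.0 in library 1 and 16.8 in library 2, against 2.68 and 2.62 for the other members, and 23 of the 100 strongest members held a tRNA gene. Chromosome 13 carried 35 of the 84, 7 of them in a run of 49338 bp near Trim27 and Gpx5 in which every member held a tRNA gene. Of the 84, 59 overlapped an H3K27ac peak and 29 an H3K27me3 peak. On chromosome 13, chr13:21974230-21975116 over a tRNA-Met gene had H3K4me3 of 27.6 and 27.8, with H3K27ac of 13.9 and 12.7 in the YHSC libraries and 13 and 14.5 in the OHSC libraries. Its H3K27ac overlapped between ages. tRNA genes occur in near-identical copies, and the authors kept only uniquely mapped reads, so the tRNA signal comes from reads that extend into unique sequence.

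Short motifs were counted in 300 bp around the middle of each peak, on both strands, and set beside the share of 32817 RefSeq promoters of the same length (250 bases before to 50 after the start). The GATA motif AGATAA was in 14.2% of members, 13.8% of gene body peaks, 4.87% of TSS-proximal peaks and 11.2% of promoters. In the same order, the RUNX motif TGTGGTTN was in 8.93%, 9.93%, 2.94% and 5.24%, and the AP-1 motif TGANTCA in 9.89%, 9.75%, 3.74% and 7.81%. Members were thus close to gene body peaks in all 3. The other 4 motifs were less frequent in members than in TSS-proximal peaks and promoters. In the same order, ETS (CCGGAAGT) was in 1.06%, 0.972%, 3.20% and 3.89%, NRF1 (GCGCATGCG) in 0.382%, 0.224%, 0.960% and 1.75%, CRE (TGACGTCA) in 0.651%, 0.555%, 1.2% and 1.79%, and the core of the insulator factor CTCF (CNAGGGGGC) in 1.59%, 1.25%, 3.09% and 2.75%. Within the members, RUNX matches fell from 13% in the lowest to 4.80% in the highest quartile of H3K4me3, AP-1 matches from 13.2% to 6.96% and GATA matches from 16.6% to 9.78%, while NRF1 matches went from 0.0449% to 0.718%. The AT-rich and CG-rich letters of these motifs follow base composition, which also moved with H3K4me3, and its part in these shares was not tested.

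Most members carried H3K27ac, and nearly all were accessible. Of the 8912, 6100 (68.4%, exact 95% interval 67.5 to 69.4) shared a base with an H3K27ac peak, 2658 (29.8%, 28.9 to 30.8) with an H3K27me3 peak, 553 (6.21%, 5.71 to 6.73) with an H3K36me3 domain and 8674 (97.3%, 97.0 to 97.7) with an ATAC-seq consensus region. For TSS-proximal peaks the shares were 85.9%, 28.9%, 25.8% and 97.9%, and for gene body peaks 68.4%, 19.4%, 44.0% and 96.9%. H3K36me3, which follows elongating RNA polymerase II along gene bodies, was thus found at few members, and these differences were not tested. The peak sets of H3K27ac, H3K27me3 and ATAC-seq merge both ages, and the H3K36me3 domains name no sample, so an overlap, also with both H3K27ac and H3K27me3, does not say in which age the mark was present. Intervals cover counting error over peaks only.

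The members fell into 4 combinations of H3K27ac and H3K27me3. H3K27ac without H3K27me3 was found at 4920 (55.2%), H3K27me3 without H3K27ac at 1478 (16.6%), both at 1180 (13.2%) and neither at 1334 (15%). H3K4me3 was highest where both overlapped, with medians of 4.94 and 4.78 in the libraries, against 2.61 and 2.60 with H3K27ac only, 2.69 and 2.51 with H3K27me3 only and 2.03 in each library with neither. CpG-island-like peaks made up 17.5% of members with both and 16.4% with H3K27me3 only, but 4.55% with H3K27ac only and 3.97% with neither. Conversely, 61.8% of CpG-island-like members overlapped H3K27me3, against 27% of the others. H3K27me3 domains under members were long, with a median of 44999 bp against 3999 bp for all H3K27me3 peaks, and long domains overlap other peaks more readily. In the highest quartile of H3K4me3, 81.4% of members overlapped H3K27ac and 36.9% H3K27me3, against 62.3% and 20.1% in the lowest.

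**Figure D3:**
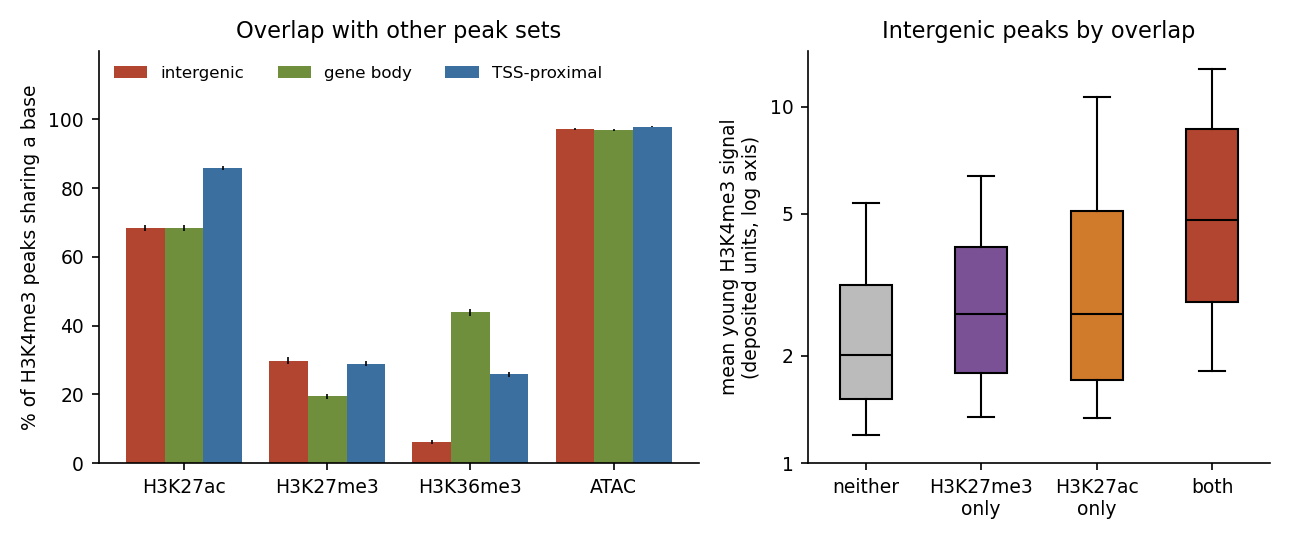
Left, the share of intergenic, gene body and TSS-proximal H3K4me3 peaks that share a base with each other peak set, with exact 95% binomial intervals; right, mean young H3K4me3 signal (deposited units, log axis) of intergenic peaks by overlap with H3K27ac and H3K27me3, with boxes at the quartiles and whiskers at the 10th and 90th percentiles. The 1180 peaks with both marks had the highest median.

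Of the members with H3K27me3, the 5 with the most H3K4me3 lay at or near Mir670hg, Plxdc1, Sipa1l3, Nkx2-3 and Sox5. Peak chr2:94177991-94179053 (H3K4me3 of 26.7 and 27.1) held a start of Mir670hg, a microRNA host gene, in an H3K27me3 domain of 33999 bp with signals of 1.43 and 1.52. Peak chr11:97987629-97989376 (24.8 and 27.7), 2059 bp from Plxdc1, held 2 tRNA-Cys genes. Starts of Sipa1l3 and of Sox5, a SOX family transcription factor gene, lay in chr7:29517840-29519515 (25.8 and 25.9) and chr6:144781001-144783051 (24.4 and 26.1). Peak chr19:43609488-43610519 (26.4 and 25.2) lay 2321 bp from Nkx2-3, a homeobox gene needed for spleen development, and was the member of these 5 without an H3K27ac peak. None of the tested regions on the 5 passed the ATAC-seq rule.

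Blood regulators had peaks across the range of H3K4me3, some of them at promoter levels. For a list of 75 genes that regulate blood cell development, 48 members had a listed gene at the nearest start, at 33 of the genes and at a median distance of 9140 bp. Their median mean signal was 5.03, 30 (62.5%) overlapped H3K27ac and 8 H3K27me3. The strongest lay 751 bp from Ikzf2, a lymphoid zinc finger factor (chr1:69687610-69688381, 24.1 and 27.1). Next came peaks 1525 bp from Foxo3, a forkhead factor of HSC quiescence (chr10:42277868-42278691, 22.1 and 21.9), 4942 bp from Mecom, needed for HSC maintenance (chr3:30513796-30515732, 22.2 and 21.6), 7942 bp from the homeobox gene Meis1 (chr11:19026061-19027792, 19.9 and 21.9) and 5243 bp from Sox4 (chr13:28957968-28959944, 19.1 and 20.4). All of these 5 carried H3K27ac and none H3K27me3. The other 5 of the 10 strongest had as their nearest gene Fos (mean signals of 15.9 and 10.8, at 11900 and 18400 bp), the HLH factor gene Id2 (13.6 and 12, at 3602 and 1779 bp) and Egr1 (10.3, at 26883 bp). Fos and Egr1 are immediate early genes, and both Id2 peaks and the stronger Fos peak lay in an H3K27me3 domain. On the 48 members 48 ATAC-seq regions were tested, and 0 were gained and 2 lost with age by edgeR (over 1.5-fold, adjusted p under 0.01) and by DESeq2, where 10.1% of all regions were gained and 2.9% lost. At an unadjusted p under 0.05, 6 of the 48 (12.5%) were higher and 13 (27.1%) lower in OHSCs, where 22.2% of all regions were higher and 20.4% lower, and the median log2 fold change was -0.10. Members in the highest quartile of H3K4me3 (mean signal of 5.02 or more) had 0.472% gained, 2.06% lost and a median of -0.099. Those in the third quartile had 1.73% gained, 2.69% lost and a median of -0.052. The regulator members, with a median signal of 5.03, also lay below the highest quartile, and the differences were not tested. The 2 losses lay near Cebpe, a late granulocyte factor (log2 fold change -0.65 ± 0.15 SE, adjusted p = 0.000429), and near Erg, an ETS factor of HSCs (-0.79 ± 0.21 SE, adjusted p = 0.00221). These 2 genes were named after their values were seen.

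With age, a smaller share of the members' regions than of all regions gained accessibility. ATAC-seq counts were compared with edgeR over 89245 regions with enough reads, and a region was called gained or lost in OHSCs when it changed over 1.5-fold with an adjusted p under 0.01. Of 8681 tested regions on members, 345 were gained (3.97%, exact 95% interval 3.57 to 4.41) and 194 lost (2.23%, 1.93 to 2.57). Over all regions 10.1% were gained and 2.9% lost. Above a 2-fold change, 105 were gained (1.21%) and 19 lost (0.219%) on members, against 4.76% and 0.648% of all regions. The regions on gene body peaks gave 4.24% and 2.97%, those on TSS-proximal peaks 1.3% and 1.87%, and those on no H3K4me3 peak 14.6% and 3.30%. The median log2 fold change was -0.03 on members, -0.14 on TSS-proximal peaks and 0.08 on regions without H3K4me3, and over the 16 old and young library pairs the members' median lay between -0.05 and -0.02. The share of all ATAC-seq reads that fell on members was 11.1% to 11.4% in the YHSC libraries and 11.2% to 11.3% in the OHSC libraries, so the ages overlapped, while reads on TSS-proximal peaks made up 43.3% to 44.1% in YHSCs and 39.8% to 40.6% in OHSCs. These differences between classes were described and not tested.

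Members were more accessible than the average region, with a median of 10.5 CPM per kb in YHSCs against 8.13 over all regions and 19.2 on TSS-proximal peaks. Regions in the third and highest quartiles of accessibility were gained less often than those in the lower quartiles. Within the lowest quartile of accessibility over all regions, 5.58% of the members' regions and 14.2% of all regions were gained. In the second quartile these shares were 6.19% and 14.2%, in the third 4.32% and 9.14%, and in the highest 2.48% and 2.83%. Losses on members were 4.76%, 5.18%, 2.16% and 0.578%, and over all regions 4.12%, 4.27%, 2.32% and 0.910%. The gap in gains was thus seen in the 3 lower quartiles and was small in the highest.

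**Figure D4:**
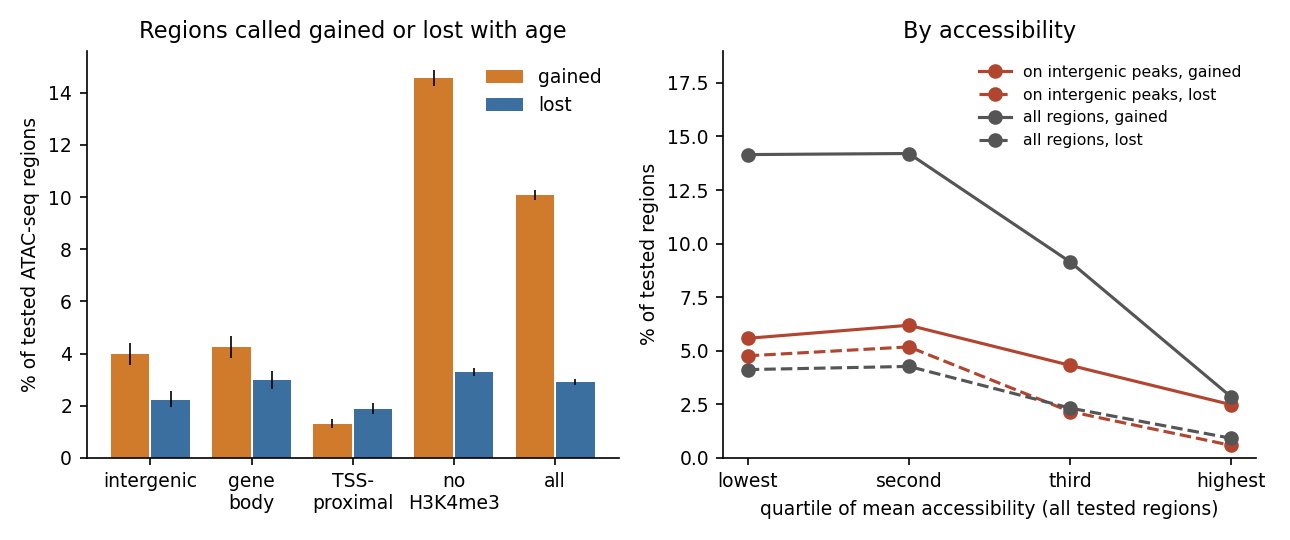
Left, the share of tested ATAC-seq regions called gained or lost in OHSCs by the class of H3K4me3 peak they lie on, with exact 95% binomial intervals; right, the same shares for regions on intergenic H3K4me3 peaks and for all regions by quartile of mean accessibility. On intergenic peaks 3.97% were gained and 2.23% lost, against 10.1% and 2.9% of all regions.

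Gains concentrated on the members with the least H3K4me3 in YHSCs. From the lowest to the highest quartile of young H3K4me3, 11.4%, 2.87%, 1.73% and 0.472% of tested regions were gained and 1.64%, 2.54%, 2.69% and 2.06% lost. The table also gives each peak an origin label, YOHSC for 6488 members, YHSC for 1822 and OHSC for 602. The sources used here do not define the label, and it is read here as the age in which the peak was called. If the label is read rightly, members labelled OHSC were called only in old cells, so more gains on them follow from how they were chosen, and their share is given as a description. On them, 142 of 513 tested regions were gained (27.7%) and 1 was lost (0.195%). On those labelled YHSC, 33 of 1664 were gained (1.98%) and 63 lost (3.79%), and on those labelled YOHSC 170 of 6514 were gained (2.61%) and 130 lost (2.00%). Without the members labelled OHSC, 6.02% of regions in the lowest quartile of H3K4me3 were gained and 0.474% in the highest, so the order of the quartiles stayed. Members labelled OHSC had median young H3K4me3 of 1.25 and 1.18. By distance, 3.45% of regions were gained on members within 1 kb of a start, 2.46% at 1 to 5 kb, 3.95% at 5 to 50 kb and 7.24% beyond 50 kb, so the share did not rise steadily. No region on a member with a tRNA gene was gained, of 94 tested, which allows a share of up to 3.19%, and 2 were lost, both by edgeR and by DESeq2. At an unadjusted p under 0.05, 1 of the 94 (1.06%) was higher and 35 (37.2%) were lower in OHSCs, where 22.2% of all regions were higher and 20.4% lower. Members with a tRNA gene were most frequent in the highest quartile of H3K4me3 (3.28% of its members), in which 0.472% of regions were gained. The median log2 fold change was -0.11 on regions of tRNA members and -0.099 in that quartile.

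The 5 largest gains and the 5 largest losses were chosen among called regions in which all libraries of one age exceeded all of the other. Of the gains, 4 lay on members labelled OHSC, where low H3K4me3 in YHSCs follows from the label as read here, and that at Kcnip4 on a member labelled YOHSC. The region chr16:53238334-53239296, 784685 bp from Alcam, which encodes a cell adhesion molecule, had 2.30, 2.13, 2.92 and 2.96 CPM in the YHSC libraries and 20.3, 17.9, 15.5 and 18.3 CPM in the OHSC libraries (log2 fold change 2.77 ± 0.12 SE, adjusted p = 1.31e-25, edgeR). The lowest old value was above 5 times the highest young one. Its H3K4me3 peak had signals of 0.293 and 0.265 and no H3K27ac or H3K27me3 peak. Alcam mRNA was higher in OHSCs (164 against 61.3 CPM, log2 fold change 1.42, adjusted p = 3.37e-09), though other genes without a protein product lie nearer to the region. The region chr4:102045283-102046513, 41575 bp from Pde4b, a cAMP phosphodiesterase gene, had 6.85, 5.44, 5.92 and 5.72 CPM in YHSCs and 27.6, 26.4, 25.2 and 21.9 in OHSCs (log2 fold change 2.07 ± 0.10 SE, adjusted p = 7.62e-25). The H3K27ac peak there went from 1.13 and 0.911 in YHSCs to 2.21 and 3.54 in OHSCs, while Pde4b mRNA did not pass the test (log2 fold change 0.01, adjusted p = 0.911).

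The region chr12:64875370-64876802, 42175 bp from Gm527, had 5.29, 4.34, 7.26 and 5.29 CPM in YHSCs and 23.0, 28.4, 17.0 and 23.3 in OHSCs (log2 fold change 2.02 ± 0.15 SE, adjusted p = 1.40e-09). H3K27ac there went from 1.22 and 0.951 to 1.79 and 2.69. The region chr5:49524112-49525334 held a start of Kcnip4, which encodes a potassium channel-interacting protein, and had 2.91, 3.37, 4.03 and 3.28 CPM in YHSCs and 15.6, 17.8, 8.96 and 14.6 in OHSCs (log2 fold change 2.06 ± 0.16 SE, adjusted p = 3.65e-11). The old values there varied by nearly a factor of 2. Kcnip4 mRNA was 2.91 CPM in YHSCs and 2.59 in OHSCs (adjusted p = 0.659). The other gain lay on chromosome 18, 235971 bp from Wdr7, with 0.987 to 1.38 CPM in YHSCs and 5.69 to 8.20 in OHSCs (log2 fold change 2.55 ± 0.19 SE, adjusted p = 7.25e-17).

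The 5 largest losses started from low accessibility, apart from the region near Atp10a. All but that at Aldoa lay on members labelled YHSC, so part of the direction may follow from the label as read here. The region chr7:58836664-58837711, 179047 bp from Atp10a, a lipid flippase gene, had 20.7, 20.8, 18.1 and 19.1 CPM in YHSCs and 6.21, 6.53, 8.56 and 8.72 in OHSCs (log2 fold change -1.38 ± 0.10 SE, adjusted p = 1.13e-16). All young values were more than 2 times every old one. H3K27ac there went from 1.18 and 2.18 in YHSCs to 0.693 and 0.845 in OHSCs. Atp10a mRNA was higher in OHSCs (140 against 80.5 CPM, log2 fold change 0.79, adjusted p = 6.94e-09), though the processed pseudogene Gm6226 lies nearer, at 645 bp. The region chr7:126807643-126808092 at Aldoa, a glycolytic enzyme gene, had 2.91, 3.65, 2.76 and 2.84 CPM in YHSCs and 0.621, 0.319, 0.363 and 1.01 in OHSCs (log2 fold change -2.38 ± 0.27 SE, adjusted p = 3.89e-10), and only part of it lay on the member. The other 3 had young means of 2.16, 2.68 and 4.42 CPM and old means of 0.414, 0.676 and 1.91 CPM. They lay in H3K27me3 domains without an H3K27ac peak, on chromosome 12 (a pair of regions whose nearest start is that of a processed pseudogene) and on chromosome 13, 9776 bp from the butyrophilin gene Btn2a2.

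**Figure D5:**
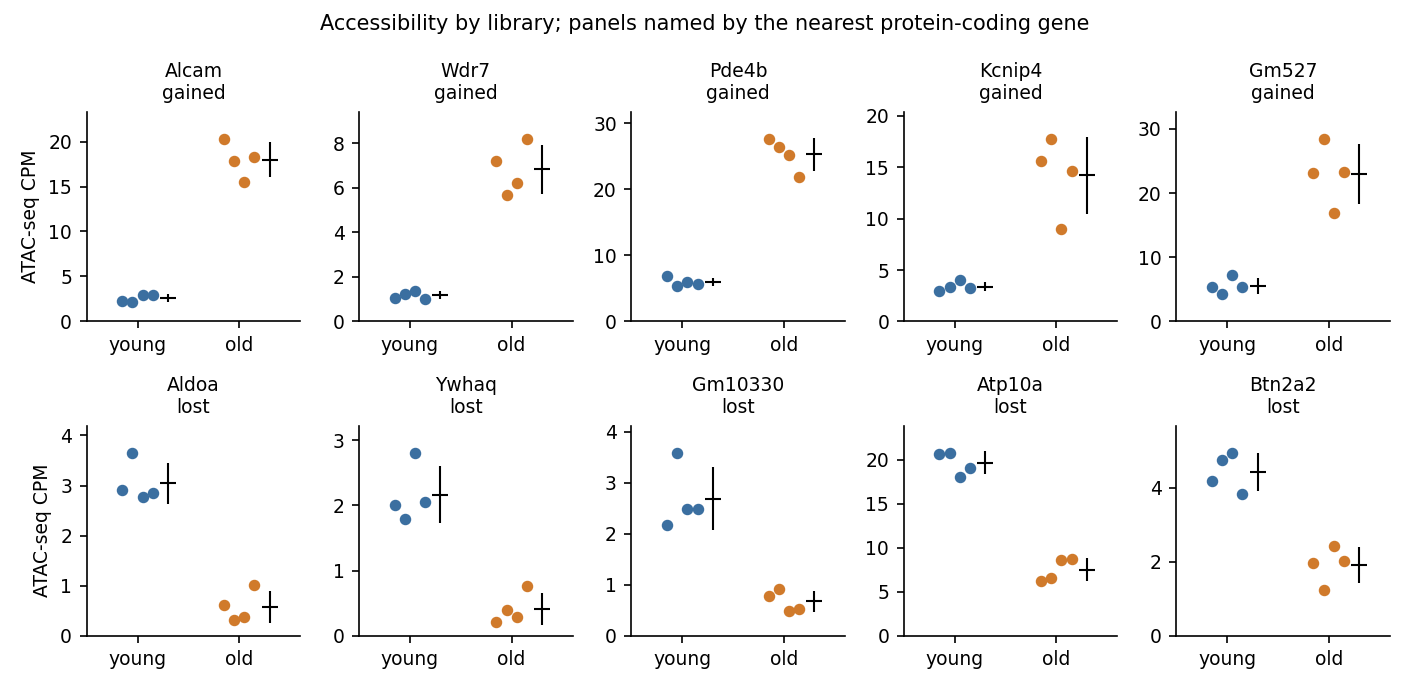
ATAC-seq accessibility (CPM, axis from 0 in every panel) of the 5 regions on intergenic H3K4me3 peaks with the largest gains and the 5 with the largest losses, 1 point per library, with the mean and SD (n = 4 per age). The regions were chosen among those without overlap between ages, and the vertical scales differ between panels.

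The libraries of both ages did not overlap for 510 of the 539 called regions on members (94.6%) and for 92.6% of the called regions over the genome.

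Where an H3K27ac peak lay on a member with a changed region, its mean was mostly higher in OHSCs for gained and lower for lost regions. The 227 H3K27ac peaks on members with a gained region had a median log2 ratio of OHSC to YHSC of 0.63, between 0.45 and 0.73 over the 4 old and young library pairs, and 93.4% of them had a higher mean in OHSCs. The 121 on lost regions had a median of -0.18 (-0.29 to -0.08), and 26.4% had a higher mean in OHSCs. The 5643 on regions that were not called had a median of 0.05 (-0.06 to 0.17), and 57.0% had a higher mean. Some of these members were called in 1 age only by their label, which favours that age. On members labelled YOHSC alone, the median log2 ratio was 0.60 (0.37 to 0.68) for the 123 H3K27ac peaks on gained regions and -0.15 (-0.25 to -0.04) for the 88 on lost regions. The H3K27ac peaks themselves were not limited to those called in both ages, so this subset removes only part of that choice. The ATAC-seq and H3K27ac libraries were separate, and the comparison was made over peaks, with no test.

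Over all members, few H3K27ac peaks changed, and the share that was higher in OHSCs was below that over the genome by a fold rule but near it by limma. With no test, a peak counted as changed at a ratio of means above 1.5 and of at least 1.2 in each pairing of libraries. Of 6186 H3K27ac peaks on members, 422 were higher in OHSCs (6.82%) and 148 lower (2.39%), while over all H3K27ac peaks 9.11% were higher and 2.27% lower. Gene body H3K4me3 peaks were close to the members, with 6.91% higher, 1.90% lower and a median log2 ratio of 0.062. On TSS-proximal H3K4me3 peaks 2.46% were higher, and on no H3K4me3 peak 17.7%. The median log2 ratio on members was 0.06, and over the 4 pairings it ran from -0.05 to 0.18, so its sign depended on the libraries paired. The median signals were 2.05 and 1.80 in the YHSC libraries and 1.99 and 2.06 in the OHSC libraries. With libraries scaled to the same median, 310 were higher (5.01%) and 256 lower (4.14%), against 7.01% and 3.63% of all H3K27ac peaks, and the median log2 ratio was -0.03. With 0.5 added to every signal, 234 were higher (3.78%) and 64 lower (1.03%), against 4.89% and 0.92% of all. Leaving out a library changes the data and also leaves 2 pairings to meet in place of 4, and every count then exceeded the main one: 1011 peaks counted as higher without YHSC library 1 and 663 without OHSC library 1, and 371 as lower without YHSC library 2, 269 without OHSC library 1 and 258 without OHSC library 2. By limma with adjustment over all H3K27ac peaks, 143 were higher (2.31%) and 19 lower (0.307%) at an adjusted p below 0.05, shares near the 2.34% and 0.374% of all H3K27ac peaks.

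The 4 largest rises in H3K27ac on members lay on regions that also gained accessibility. Those near Naaladl2 and Gprc5c were on members labelled OHSC and those near Mbnl1 and at Gm12655 on members labelled YOHSC, and 3 of the 4 largest falls (near Gm13849, Dap and Crb2) were on members labelled YHSC, so that for the labelled ages part of the direction follows from the label. The H3K27ac peak chr3:25062865-25063782, 80785 bp from Naaladl2, had signals of 0.538 and 0.415 in YHSCs and 2.25 and 1.97 in OHSCs (ratio 4.43, limma adjusted p = 0.000393), and its ATAC-seq region had a log2 fold change of 1.58 ± 0.12 (SE, adjusted p = 1.27e-16). The peak chr3:60638507-60639185, 15955 bp from Mbnl1, a splicing regulator gene, went from 0.678 and 0.636 to 2.78 and 2.62 (ratio 4.11, adjusted p = 5.36e-05). Those at Gm12655 (chr4:94476723-94477711, ratio 3.73) and near Gprc5c, a retinoic acid-induced receptor gene (chr11:114843267-114844534, ratio 3.50), went from 1.01 and 0.916 to 3.21 and 3.96, and from 0.703 and 0.397 to 1.79 and 2.06. In all 4 the most accessible region on the member was higher in OHSCs, with log2 fold changes from 0.70 to 1.58. The largest falls were near Gm13849 (chr6:31803390-31803965, 1.09 and 0.983 in YHSCs, 0.486 and 0 in OHSCs, limma adjusted p = 0.0533), near Dap (chr15:31279611-31280318, 2.05 and 1.54, then 0.485 and 0.563), near Crb2 (chr2:37758069-37758906, 2.71 and 2.26, then 1.01 and 0.998) and near A230072I06Rik (chr8:12162840-12163450, 1.29 and 1.88, then 0.738 and 0.582). The latter 3 passed limma (adjusted p = 0.00448, 0.00403 and 0.0498), and of the 3 falls with a tested ATAC-seq region only that near Crb2 was also lost by the ATAC-seq rule (log2 fold change -1.09 ± 0.15 SE, adjusted p = 4.22e-08). With 0.5 added to every signal, the 4 rises had log2 ratios of 1.21 to 1.48 in place of 1.81 to 2.15, and the falls -1.16 to -0.85 in place of -2.10 to -1.26. The size of the fall near Gm13849 depended on OHSC library 2, which was at 0, and without that library its log2 ratio was -1.10.

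Nearest genes of gained regions were more often higher in OHSCs. Of the 242 tested protein-coding genes nearest to members with a gained region, 30 (12.4%) had higher and 4 (1.65%) lower mRNA in OHSCs by edgeR (over 1.5-fold, adjusted p under 0.05). Of the 145 nearest to members with a lost region, 7 (4.83%) were higher and 9 (6.21%) lower. For members whose regions were not called the shares were 7.30% and 3.72% of 3659 genes, and over all 21522 genes tested 4.69% and 2.83%. A gene could be nearest to several members, and the shares were not tested. Of the 345 gained regions, 142 lay on members labelled OHSC. As read here, that label may favour higher mRNA in OHSCs, and the shares are not given without these members.

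Most of the genes that start inside members were long noncoding genes or pseudogenes. There were 935 by GENCODE identifier, 497 of them long noncoding, 269 protein-coding and 115 pseudogenes, and 914 matched the mRNA table by symbol. After the filter on low counts 502 were tested, of which 33 (6.57%) were higher and 19 (3.78%) lower in OHSCs, against 4.69% and 2.83% over all genes. Of 216 long noncoding genes tested, 15 were higher and 7 lower. Some of the genes start inside members labelled OHSC, which as read here may favour higher mRNA in OHSCs. The shares are not given without them. mRNA was counted per gene, so for genes with several starts the share that comes from the start inside the member is unknown, and without a stated strand setting reads of overlapping genes cannot be told apart. HSC markers were high in every library (summed CPM of 10 markers 4626 to 4881 in YHSCs and 4456 to 5025 in OHSCs). The summed CPM of 6 B cell markers was 92.3 to 920 in YHSCs and 44.5 to 129 in OHSCs, and of 5 erythroid markers 136 to 200 and 23.0 to 101. That of 5 megakaryocyte markers was 149 to 184 in YHSCs and 263 to 349 in OHSCs, and of 3 endothelial markers 83.7 to 93.3 and 104 to 126. No marker of these lists was at 0 in every library. The part of such cells in the mRNA results was not tested, and in bulk samples fewer cells of a type and less RNA per cell cannot be told apart.

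The 10 most expressed of these genes were Eef1a1, the translation elongation factor, Fam107b, the splicing factor gene Srrm2, Aldoa, Cd47, which encodes a signal against phagocytosis, the cytoskeletal genes Flna, Sptbn1 and Arhgef2, the lincRNA Gm19590 and the phosphatase gene Ptp4a2, with mean CPM in YHSCs from 341 to 2911. None passed the fold threshold. Aldoa shares its symbol with another gene identifier, so its value is uncertain for the start in question. Gm19590 has its only annotated start inside chr5:75833189-75835848, a member with H3K4me3 of 27 and 30.5. Its mRNA was 383, 405 and 421 CPM at the lowest, median and highest of 4 YHSC libraries and 282, 331 and 365 CPM over 8 OHSC libraries (log2 fold change -0.31 ± 0.06 SE, adjusted p = 0.000969), without overlap between ages.

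Zg16, which encodes a mucus lectin, had the largest rise. Its CPM was 2.35, 2.47 and 2.85 (lowest, median, highest) in YHSCs and 25.9, 41.1 and 62.6 in OHSCs (log2 fold change 4.10 ± 0.28 SE, adjusted p = 9.24e-07). The member at one of its 4 starts, chr7:127084899-127087388, had H3K4me3 of 1.3 and 1.05 and is labelled OHSC. The noncoding 9630013D21Rik rose from 0.503 to 0.748 CPM in YHSCs to 4.39 to 8.23 CPM in OHSCs (log2 fold change 3.38 ± 0.20 SE, adjusted p = 6.97e-12). The H3K27ac peak at its member chr4:109656666-109658334, which also overlapped H3K27me3, went from a mean of 1.42 to 3.30. Accessibility of that member did not pass the edgeR test (log2 fold change 0.14 ± 0.07 SE, adjusted p = 0.0994). The lincRNA 1200007C13Rik, with its only start in chr2:167833130-167834237, had 0 to 0.289 CPM in YHSCs and 0.625 to 1.63 in OHSCs (log2 fold change 3.03 ± 0.52 SE, adjusted p = 9.48e-05). There the H3K27ac mean went from 1.22 to 3.82 and accessibility rose by 0.97 ± 0.13 (log2, SE, adjusted p = 3.30e-08). All 3 had no overlap between ages.

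Gm10419, a lincRNA with a start in the third widest member, rose from 48.0, 50.4 and 55.4 CPM in YHSCs to 154, 176 and 195 CPM in OHSCs (log2 fold change 1.78 ± 0.06 SE, adjusted p = 1.90e-16). Accessibility of its member rose by 0.47 ± 0.07 on the log2 scale (SE, adjusted p = 8.65e-08), below the fold threshold. Aspa, which encodes an aspartoacylase, rose from 10.5, 11.7 and 12.1 to 34.7, 41.6 and 45.1 CPM (log2 fold change 1.82 ± 0.08 SE, adjusted p = 1.63e-14) while the region on its member chr11:73326396-73327105, labelled YHSC, was lost (-0.72 ± 0.10 SE, adjusted p = 4.27e-08). In this gene mRNA and the member's accessibility moved in opposite directions.

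Lin28b, which encodes an inhibitor of let-7 microRNA maturation typical of fetal HSCs, had the largest fall. Its CPM was 3.22, 4.65 and 5.28 in YHSCs and 0.541, 0.965 and 2.60 in OHSCs (log2 fold change -2.03 ± 0.29 SE, adjusted p = 2.79e-05). The member at its start, chr10:45485313-45487054, had H3K4me3 of 12.4 and 11.3 and overlapped both H3K27ac and H3K27me3, and its H3K27ac mean went from 1.27 to 0.771 while accessibility did not pass the test (log2 fold change -0.05, adjusted p = 0.713). Gm41071 fell by 1.45 ± 0.31 on the log2 scale (SE, adjusted p = 0.00108), Ipcef1 by 1.44 ± 0.19 (adjusted p = 2.06e-05), 4930471E19Rik by 1.39 ± 0.37 (adjusted p = 0.00774) and Gm10384 by 1.29 ± 0.13 (adjusted p = 3.42e-08). Of these, 4930471E19Rik was the gene whose ages overlapped, and its member, labelled OHSC, had higher accessibility in OHSCs (0.79 ± 0.16 SE, adjusted p = 0.000104).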

How the data were processed

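For ChIP-seq, the authors trimmed reads with cutadapt, aligned them to mm10 with BWA, removed duplicates, multi-mapped reads and blacklisted regions, normalized libraries to a common number of reads and called H3K4me3 and H3K27ac peaks with MACS (FDR below 0.05). The deposited unit is a signal per peak. For ATAC-seq the deposited unit is raw read counts per consensus region, and for mRNA-seq raw read counts per gene (STAR, featureCounts). In total, 8 columns of per-sample values had no sample listed and were not used, nor were the authors' fold change columns, which hold ratios of old to young. The old columns of H3K4me3 and H3K27me3 are among these 8.

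Distinct intergenic peaks were overlapped by at least 1 bp with bedtools 2.31.1. Starts came from GENCODE M21 and RefSeq (GRCm38). Counts were normalized with TMM and compared with the robust quasi-likelihood test of edgeR 4.0.16 over all 89245 regions above 1.5 CPM in at least 4 libraries and all 21522 genes left by filterByExpr, with Benjamini-Hochberg adjustment; 92 spike-in rows were left out. H3K27ac was also tested with limma 3.58.1 on log2(signal + 0.1). R 4.3.3, DESeq2 1.42.0, Python 3.11.15, scipy 1.17.1 and pandas 2.3.3 were used. Errors after ± are SD between libraries unless given as SE of the fit.

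Named items were the 8 strongest, 5 widest and 5 strongest H3K27me3-bearing members, the 10 strongest nearest a listed blood regulator, the 5 called regions and the 5 called genes with the largest change each way (regions only where libraries did not overlap), the 10 most expressed genes and the 4 H3K27ac peaks with the largest change each way. The members and lists were chosen with earlier results of these data known. The study calls the ChIP-seq replicates biological and gives mice as n for ATAC-seq, but the labels do not tie libraries to animals, so p-values measure the spread between these samples. ATAC-seq libraries held 15427933 to 26260337 counted reads in YHSCs and 20033166 to 25920194 in OHSCs, and mRNA libraries 20475764 to 24654742. Reads carry no molecular identifiers, so intervals and the limit for a count of 0 (3 counts) cover counting error only. On simulated counts with 200 features changed by a factor of 2, 81% were recovered for ATAC-seq (89245 regions, 2 false calls) and 84% for mRNA (21522 genes, 7 false). On simulated log2 signals of H3K27ac with the same spread for every peak, limma recovered 95% (39557 peaks, 15 false). Changes were placed only in features above a floor of mean counts or signal, so recovery of weaker features was not measured. Alternatives were DESeq2, its size factors, filters, thresholds, overlaps, subsets of peaks, a GC correction, a replicate block and leaving out each library.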

Additional observations from a re-analysis of the deposited data

Results flagged for a closer look

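In a check of single libraries within groups of 4 to 10, 2 of 68 groups held a library that stood apart from the others, where chance gives about 1 in 20. In the lost region chr7:126807643-126808092 at Aldoa, YHSC library 2 had 3.65 CPM and the next highest young library 2.91 CPM. For Lin28b mRNA, OHSC library 4 had 2.60 CPM and the next highest old library 1.19 CPM, still below all YHSC libraries.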

How the results depend on the processing

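With any library left out, between 325 and 381 ATAC-seq regions were gained and between 172 and 216 lost, with a median log2 fold change of -0.04 to -0.03. Likewise 30 to 33 genes were higher and 17 to 21 lower, the median H3K4me3 signal was 2.65 to 2.70, and 461 to 1011 H3K27ac peaks were higher and 186 to 371 lower, with a median H3K27ac log2 ratio of -0.03 to 0.17, which changed sign. At a fold change above 2, 105 regions were gained and 19 lost. On peaks above the median signal 49 were gained and 107 lost, with a median log2 fold change of -0.081, and on peaks labelled as called in both ages, a subset chosen after seeing the data, 170 were gained with a median log2 fold change of -0.048. The median was -0.065 without the CPM filter and -0.021 over 5 kb from a start, where the H3K4me3 median was 2.45. With at least 50% of the peak covered, on peaks above the median signal and over 5 kb from a start, overlap with H3K27me3 was 28.7%, 36.6% and 28.0% and with ATAC-seq 89.5%, 98.1% and 97.7%. Under the former pair, overlap with H3K27ac was 64.4% and 74.4% and with H3K36me3 4.74% and 5.48%. H3K27ac gave 143 peaks higher and 19 lower with limma, 234 and 64 with 0.5 added to every signal, and 310 and 256 with libraries scaled to the same median, where the median log2 ratio was -0.03.

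Replicate numbers did not pair the samples (correlation of deviations -0.23 to 0.04 for mRNA and 0.02 for H3K27ac), and ATAC-seq ages share no number. With a replicate block, limma gave 159 H3K27ac peaks higher and 29 lower, and edgeR 28 genes higher and 18 lower. Among the values of single regions and genes, 9 for H3K27ac moved beyond the spread of the library pairings, 7 of them with 0.5 added to every signal (each named peak but that near Gm13849), and none changed direction. The others were the peak near Mbnl1 with libraries scaled to the same median (log2 ratio 1.95 in place of 2.04) and that near Gprc5c without YHSC library 1 (2.28 in place of 1.81). A further 120 for ATAC-seq, 368 for mRNA and 38 for H3K27ac kept their direction and side of the threshold. H3K27ac has 2 libraries per age and was the least stable measure here.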
